A study of Mus musculus with 6 samples.

Results

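The genes for the proteins of the cytosolic and the mitochondrial ribosome were compared in livers of newborn mice whose mothers had eaten different oils. Members were all genes whose symbol begins with Rpl, Rps, Rplp, Mrpl or Mrps and a number, without pseudogenes and without the Rps6k kinase genes, which only share the letters. Each gene was represented by the brightest of the array probes annotated to that symbol alone. The rule found 139 genes, 62 cytosolic and 77 mitochondrial, among 19938 genes with such a probe. Another 21 matching symbols, Rpl3, Rpl11 and Rps24 among them, were seen only on probes annotated to several genes and were not analysed here. The symbols also cover 7 paralogs or ribosomal-protein-like genes (Rpl3l, Rpl7l1, Rpl10l, Rpl32l, Rpl39l, Rps4l and Rps27l). Rps19bp1, Rps23rg1 and Mrps36 match by name but are not known as subunit proteins of these ribosomes.

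Total liver RNA was hybridised to 6 Affymetrix arrays, 2 for each maternal diet, and each array carried a pool of 3 livers. In the ALA group the mothers' diet held flaxseed oil, in which alpha-linolenic acid, an omega-3 fatty acid, was put at 31.6%. In the SFA group it held coconut oil, with saturated fatty acids at 48.51%, and in the control group soybean oil. All 3 diets were isocaloric with 6 g% of oil, all mice were C57Bl6/J, fathers ate the mothers' diet while mating, and the livers were taken within 1 day of birth. The labels give no litter and no sex, and are silent on whether the 2 pools of a diet hold different animals, so p-values cover only the spread between these arrays, which may be technical.

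Every cytosolic ribosome is built from a small subunit, which decodes the messenger RNA, and a large subunit, which joins the amino acids. Their proteins are needed in equal numbers, and many of their messenger RNAs start with a cytosine followed by a run of pyrimidines, through which the mTOR kinase controls their translation. The mitochondrial ribosome is a separate machine whose proteins are encoded in the nucleus and imported, and it makes the few respiratory chain subunits that mitochondrial DNA encodes. A newborn liver makes large amounts of plasma protein and relies on respiration for its energy, so both machines are active there.

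The starts of these genes are shown because the motifs counted below lie there. The first 4 are well-measured cytosolic members that all have the pyrimidine run described below. Only 10 of 50 cytosolic members had it, so these 4 are not typical of the set. Called members follow, with Mrps18a, which holds the letters of both factors named below. RefSeq start sites on the mouse build GRCm38.p6 were listed for 50 of the 62 cytosolic and 68 of the 77 mitochondrial members, with 250 bases before and 50 from the start. Each line gives the 60 bases before the start and the first 20 transcribed bases. Capitals mark a pyrimidine run that begins with C at the start itself, the letters CCGGAAG, which are the core of the site for ETS factors, or AAGATGGC, the site for YY1, the last 2 on either strand.
Rps6, chr4:86857348-86857427, minus strand: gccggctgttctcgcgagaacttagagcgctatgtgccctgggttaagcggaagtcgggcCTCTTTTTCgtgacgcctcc
Rps10, chr17:27635225-27635304, minus strand: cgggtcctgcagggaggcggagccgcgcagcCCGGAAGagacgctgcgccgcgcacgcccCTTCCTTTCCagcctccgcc
Rpl38, chr11:114668520-114668599, plus strand: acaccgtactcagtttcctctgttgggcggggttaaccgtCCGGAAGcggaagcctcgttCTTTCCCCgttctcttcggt
Rps18, chr17:33955646-33955725, minus strand: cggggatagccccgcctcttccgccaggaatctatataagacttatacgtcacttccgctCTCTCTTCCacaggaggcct
Rps27l, chr9:66946026-66946105, plus strand: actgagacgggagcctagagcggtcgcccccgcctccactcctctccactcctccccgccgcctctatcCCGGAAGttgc
Rpl37a, chr1:72711200-72711279, plus strand: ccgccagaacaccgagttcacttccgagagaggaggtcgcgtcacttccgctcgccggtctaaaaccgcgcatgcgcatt
Mrps18a, chr17:46110944-46111023, plus strand: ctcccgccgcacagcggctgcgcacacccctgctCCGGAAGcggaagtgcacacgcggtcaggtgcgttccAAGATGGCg
Mrps22, chr9:98601660-98601739, minus strand: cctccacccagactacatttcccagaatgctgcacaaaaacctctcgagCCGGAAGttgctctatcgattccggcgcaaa
Mrpl23, chr7:142532972-142533051, plus strand: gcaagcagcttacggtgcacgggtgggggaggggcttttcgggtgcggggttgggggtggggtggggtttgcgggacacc
Mrpl50, chr4:49521064-49521143, minus strand: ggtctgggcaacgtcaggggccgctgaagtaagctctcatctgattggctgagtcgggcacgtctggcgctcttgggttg
The pyrimidine run, in capitals towards the end of the first 4 lines, is 9 bases long in Rps6 and Rps18, 10 in Rps10 and 8 in Rpl38. The ETS letters stand in Rps10, Rpl38, Rps27l, Mrps18a and Mrps22, and Mrps18a also has those of YY1.

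A start cytosine with a run of at least 5 pyrimidines was found in 10 of 50 cytosolic members (20%) and 0 of 68 mitochondrial members, against 3.01% of the 27025 genes listed. The annotated starts can lie some bases from the true ones, so these counts describe the annotation. Within the whole listed stretch, from 250 bases before each start to 50 from it and so longer than the printed lines, CCGGAAG on either strand was in 18 cytosolic (36%) and 25 mitochondrial members (36.8%), against 9.93% of all genes. AAGATGGC was in 3 cytosolic (6%) and 12 mitochondrial members (17.6%), against 3.19%, and the consensus site for NRF1 was in 4% and 4.41%, against 1.07%. TATAAA was in 12% and 7.35%, against 15.7%, CCAAT in 28% and 38.2%, against 41.1%, and the GC box GGGCGG in 58% and 50%, against 38.2%. None of these 6 motifs contains another, and all were searched on both strands. A match is a description of the letters in the window.

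On the log2 scale, medians over all probes were 4.90 and 4.96 in ALA pools and 4.76 and 4.82 in SFA pools. In control pools they were 4.94 and 4.95. Both SFA arrays were thus lowest, as they were in the 75th percentile (6.68 and 6.63, against 6.75 to 6.77 on the others). The defining liver marker was bright: Alb, which encodes albumin, was between 12.58 and 12.75 on all 6 arrays. By Xist and Eif2s3y, the ALA pools had male signal, the SFA pools and control replicate 1 female signal, and control replicate 2 both, so diet and the sex makeup of the pools cannot be told apart. Markers of other cells also moved with diet. As a background, called rises against control made up 5.11% of the whole tested set on ALA and 6.62% on SFA. Called falls made up 2.82% and 7.15% of it. Of 12 tested cell cycle genes, 6 rose on ALA and 10 on SFA against control, with medians of 1.81 and 2.76. The summed linear signal of the 13 with a probe was 1200 and 2566 in ALA pools, 2824 to 3063 in SFA pools and 717 to 742 in control pools. For the 12 erythroid genes with a probe the sums were 1177 to 1256 on ALA and 1491 to 1519 on SFA. In control pools they were 474 to 720. Of the 12, 4 (Gata1, Rhag, Epb42 and Hemgn) were below the signal minimum described next. Of the 8 tested, 3 rose on ALA against control, and on SFA 3 rose while Ermap fell by 1.10. Ermap was also higher on ALA than on SFA, by 1.49. With any 1 array left out this difference was 1.34 to 1.65, and the call was lost each time. Of the erythroid calls, only those of Slc4a1 and Tfrc against control, on both diets, held in all such fits. The 10 hepatocyte genes summed to 45613 to 46021, 40985 to 41866 and 41962 to 42621 on ALA, SFA and control arrays. All 10 macrophage genes rose on ALA and 7 on SFA against control, as did 6 and 6 of 8 endothelial genes and 7 and 8 of 9 stellate cell and fibroblast genes, with 0 lower in each list. Macrophage sums were 4138 to 5447 on ALA, 3892 to 4056 on SFA and 1924 to 2166 in control pools. Endothelial sums were 2994 to 3285, 2360 to 2431 and 983 to 1540, and stellate cell and fibroblast sums 3321 to 3347, 3195 to 3232 and 1312 to 1914, on ALA, SFA and control arrays. Of 5 megakaryocyte genes 3 rose on ALA and 3 on SFA, with sums of 450.0 to 638 on ALA, 898 to 1027 on SFA and 223 to 252 in control pools. Of 5 tested granulocyte genes 2 rose on SFA, and limma called 0 on ALA, with 1 at an unadjusted p below 0.05 (24.7% of the whole tested set). With any 1 array left out, the marker calls that held in all such fits on ALA and on SFA were 1 and 4 for cell cycle, 4 and 1 for macrophage, 2 and 0 for endothelial, 3 and 3 for stellate cell and fibroblast and 2 and 3 for megakaryocyte genes. In whole livers, more cells of a type and more RNA per cell cannot be told apart, and the part of these shifts in the ribosomal values was not tested.

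Genes with a mean log2 signal of at least 5 over the 6 arrays were tested, 10977 in all, with 58 cytosolic and 76 mitochondrial members among them. The 5 members below that minimum were the paralogs Rpl3l (mean 3.37), Rpl10l (4.63) and Rpl39l (3.34), the stalk protein gene Rplp2 (4.75) and Mrps36 (4.31). Just above it lay Mrpl33 (5.27) and Mrpl44 (5.30). Rpl3l is known from muscle and Rpl10l and Rpl39l from testis, while Rplp2 is a core protein whose probe was simply dim. Among the members as a whole the signal ran up to 12.01 for Rps6 in the cytosolic set and 9.63 for Mrps21 in the mitochondrial set. Such signals depend on the probe and do not compare the amounts of different RNAs.

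**Figure D1:**
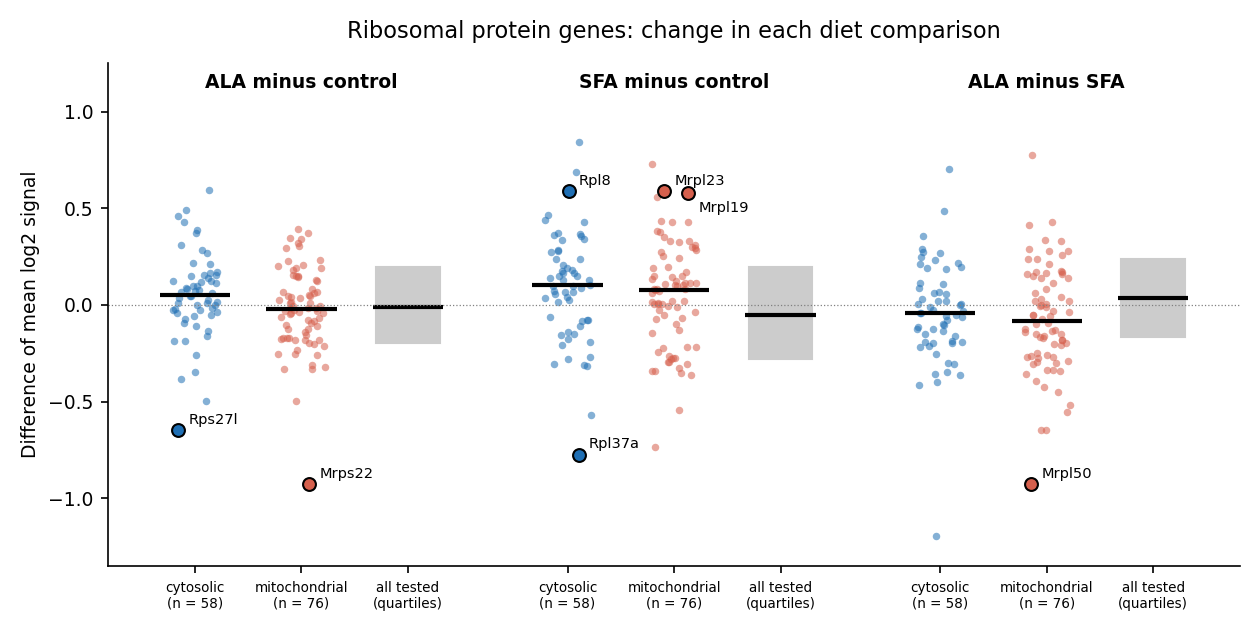
Difference of mean log2 signal (vertical axis) of each tested cytosolic (blue, n = 58) and mitochondrial (red, n = 76) member in the 3 comparisons, with horizontal position within a column random. Large outlined points are the called members, black bars the medians, and grey boxes the quartiles of all 10977 tested genes; only 7 outlined points appear, and each column's median lies within 0.11 of 0.

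The first question was whether the ribosomal protein genes differed between ALA and control livers. Of 134 tested members, 2 were called at an adjusted p below 0.05, against 7.93% of all tested genes. Both were lower in ALA livers, where the background for falls was 2.82%: Mrps22, which encodes a protein of the mitochondrial small subunit that is mutated in a human mitochondrial disease, and Rps27l, a paralog of the small-subunit gene Rps27 known as a target of p53. Their share of 1.49% lay below the background share. With limma, 0 members were called higher, where 5.11% of all tested genes were, and 10 members had an unadjusted p below 0.05 (24.7% of all tested genes).

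Mrps22 (probe 10595900, chromosome 9) gave 6.6 and 6.90 (log2 signal) in ALA pools, 7.48 and 7.32 in SFA pools, and 7.90 and 7.45 in control pools. Both ALA arrays lay below the other 4. Mrps22 fell by 0.93 on ALA against control (SE 0.19, 95% interval −1.37 to −0.48, adjusted p = 0.0327, n = 2 arrays per group). The call was lost without any 1 of 5 arrays (adjusted p = 0.0629 to 0.118) and held without control replicate 2 (adjusted p = 0.0482), with differences between −0.70 and −1.15. Against SFA the difference was −0.65 and was not called (adjusted p = 0.119).

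Rps27l (probe 10586604, chromosome 9) had 9.39 and 9.61 in ALA pools, 9.89 and 9.80 in SFA pools, and 10.14 and 10.15 in control pools. The 3 diets did not overlap, with ALA lowest and control highest. Rps27l fell by 0.65 on ALA (SE 0.13, 95% interval −0.96 to −0.34, adjusted p = 0.0319). The adjusted p lay between 0.0528 and 0.131 with any 1 of the 6 arrays left out, and the difference between −0.54 and −0.76. On SFA against control the difference was −0.30 (adjusted p = 0.163).

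The cytosolic members nearest to a call on ALA were Rpl5, Rpl36 and Rps4l. Rpl5, whose protein joins the 5S ribosomal RNA and can bind the p53 regulator Mdm2, had 9.41 and 9.69 in ALA pools against 9.99 and 10.11 in control pools, a difference of −0.50 (adjusted p = 0.0756). Rpl36, a large-subunit gene, had 10.08 and 10.13 against 9.78 and 9.57, a difference of 0.43 (adjusted p = 0.0889). Rps4l, an autosomal paralog of the X-linked Rps4x, had 7.22 and 7.52 against 6.6 and 6.95, a difference of 0.60 (adjusted p = 0.102). In each of these the ALA arrays lay on 1 side of the control arrays, and none passed the test. The nearest mitochondrial members were Mrpl50 (−0.50, adjusted p = 0.0519), Mrpl23 (0.32, adjusted p = 0.173) and Mrps28 (0.30, adjusted p = 0.201).

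The second comparison set SFA against control livers, where 13.8% of all tested genes were called. Of the 134 members 4 were, which is 2.99%. Rpl8, Mrpl23 and Mrpl19 rose and Rpl37a fell, all 4 of them large-subunit genes, and the background for rises was 6.62% and for falls 7.15%. At an unadjusted p below 0.05 there were 27 members (31.9% of all tested genes). With each array centred on its 75th percentile, 4 cytosolic and 6 mitochondrial members were called higher and 1 cytosolic member lower, against 3 higher and 1 lower as deposited. With any 1 of the SFA or control arrays left out, fewer members were called, and fewer of all tested genes as well. Each such fit leaves 1 array in a group.

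Rpl37a (probe 10561138, gene on chromosome 1) encodes a zinc-binding protein of the cytosolic large subunit. Whether this probe, the only one used for the gene, lies at the gene itself or at a copy elsewhere was not checked. It had 9.77 and 9.99 in ALA pools, 9.19 and 9.17 in SFA pools, and 9.90 and 10.003 in control pools, so that both SFA arrays stood below the other 4. Rpl37a fell by 0.77 on SFA (SE 0.13, 95% interval −1.08 to −0.46, adjusted p = 0.0146). The ALA difference from control was −0.07 (95% interval −0.38 to 0.24), and ALA minus SFA was 0.70 (adjusted p = 0.0552). Without SFA replicate 1, SFA replicate 2 or control replicate 2, the adjusted p of the SFA difference was 0.0783, 0.0810 and 0.0808.

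Rpl8 (probe 10425018, chromosome 15) encodes a large-subunit protein beside the peptidyl transferase centre. It had 9.24 and 9.18 in ALA pools, 9.43 and 9.43 in SFA pools, and 8.78 and 8.89 in control pools. The 3 diets did not overlap. Rpl8 rose by 0.59 on SFA (SE 0.12, 95% interval 0.31 to 0.87, adjusted p = 0.0240), and its ALA difference from control was 0.37 (adjusted p = 0.106). Without 1 of the SFA or control arrays the adjusted p was 0.0803 to 0.109.

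Mrpl23 (probe 10559233, chromosome 7), whose protein lies at the exit tunnel of the mitochondrial large subunit, had 8.20 and 8.23 in ALA pools, 8.55 and 8.42 in SFA pools, and 7.82 and 7.97 in control pools. SFA was highest and control lowest, with no overlap. The gene rose by 0.59 on SFA (SE 0.13, 95% interval 0.29 to 0.89, adjusted p = 0.0285). A second probe of Mrpl23 differed by 0.62 on SFA and 0.31 on ALA. Mrpl19 (probe 10545576, chromosome 6), another mitochondrial large-subunit gene, had 6.80 and 6.62 in ALA pools, 7.20 and 7.13 in SFA pools, and 6.64 and 6.53 in control pools. Both SFA arrays lay above the other 4, while those of ALA and control overlapped. Mrpl19 rose by 0.58 on SFA (SE 0.13, 95% interval 0.28 to 0.88, adjusted p = 0.0314). Without 1 of the SFA or control arrays the adjusted p was 0.0810 to 0.137 for Mrpl23 and 0.0800 to 0.141 for Mrpl19.

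Further members came close on SFA without passing. Rpl36, with 10.11 on both SFA arrays against 9.78 and 9.57 in control, differed by 0.43 (adjusted p = 0.0684). Rpl21 differed by 0.47 (0.0801 adjusted) and Rpl23 by 0.36 (0.0850 adjusted), and all of these are of the cytosolic large subunit. A second, dimmer probe of Rpl23 (mean 7.66) differed by −0.08 on SFA, and by −0.45 on ALA where the chosen probe gave −0.00. The 8 other probes of Rpl36 and the 8 of Rpl21 had the sign of the chosen probe on SFA. Mrps12, whose protein lines the decoding site of the mitochondrial small subunit, had 5.04 and 5.60 in SFA pools against 6.21 and 5.91 in control pools, a difference of −0.74 (adjusted p = 0.0597). Mrps26, also of the small subunit, had 6.42 and 6.43 against 5.90 and 5.50, a difference of 0.73 (adjusted p = 0.0622). Mrps12 and Mrps26 thus differed in opposite directions, and both had dim probes with SE of 0.21.

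Between ALA and SFA, 1.53% of all tested genes were called and 1 of 134 members (0.746%), with 20 at an unadjusted p below 0.05 (22.4% of all tested genes). The background was 1.09% for genes higher on ALA and 0.437% for genes lower. The called member was Mrpl50, which encodes a protein of the mitochondrial large subunit. Mrpl50 (probe 10512901, chromosome 4) had 7.84 and 7.91 in ALA pools, 8.78 and 8.81 in SFA pools, and 8.42 and 8.31 in control pools. ALA was lowest and SFA highest, with control between them and no overlap. On ALA it was lower than on SFA by 0.93 (log2 difference −0.93, SE 0.12, 95% interval −1.21 to −0.64, adjusted p = 0.0383). Its differences from control were −0.50 on ALA (adjusted p = 0.0519) and 0.43 on SFA (adjusted p = 0.0581), which use the same control arrays. The adjusted p of the ALA to SFA difference was 0.0581 to 0.191 with any 1 of the 6 arrays left out.

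**Figure D2:**
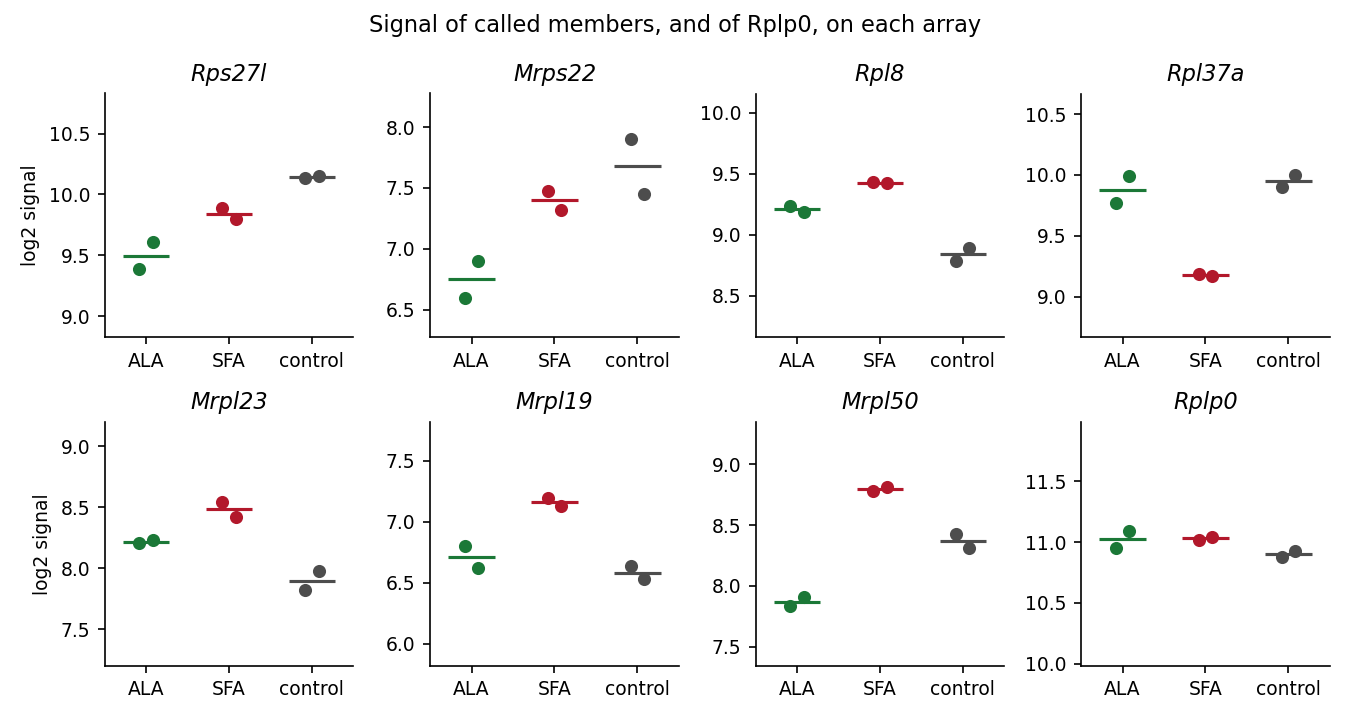
Log2 signal (vertical axis, each panel spanning 2 log2 units around its gene's mean) of the 7 called members and of the stalk gene Rplp0 on the ALA, SFA and control arrays. Points are arrays and bars means of 2 arrays; Mrpl50 and Rpl37a show the widest gap between ALA and SFA, while the 6 points of Rplp0 lie between 10.88 and 11.09.

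Apart from Rpl37a, given above, the members with the smallest p in each compartment that were not called between ALA and SFA were as follows. Rps23rg1, a retrogene copy of Rps23, had 4.98 and 5.90 in ALA pools against 6.93 and 6.33 in SFA pools (−1.19, adjusted p = 0.0983). Its ALA duplicates differed by 0.91, the widest gap between the ALA duplicates of any tested member. Mrpl22 had 6.83 and 7.19 against 6.16 and 6.31 (0.78, adjusted p = 0.0829). Mrpl48 differed by −0.55 (adjusted p = 0.111) and Mrpl19 by −0.45 (adjusted p = 0.114). Rpl23 differed by −0.36 (adjusted p = 0.140). Over all 3 diets, limma's moderated F test called 6 members (4.48%), 3 cytosolic and 3 mitochondrial, against 13.5% of all tested genes. These were the called members named above except Mrpl23.

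Beside the few calls, the intervals and the sizes of the differences were read. The 95% interval lay wholly within 0.58 of 0 on the log2 scale for 95 of 134 members on ALA against control (70.9%), 71 on SFA against control (53.0%) and 85 between ALA and SFA (63.4%). Over all tested genes the shares were 50.8%, 43.9% and 49.4%. An estimated difference of at least 0.58 was seen in 3, 8 and 6 members in these comparisons (2.24%, 5.97% and 4.48%), against 12.3%, 15.5% and 8.31% of all tested genes. The median SE was 0.14 for members and 0.15 for all tested genes. Median absolute differences were 0.13, 0.19 and 0.18 for members, against 0.20, 0.24 and 0.20 for all tested genes. In members not counted as within 0.58 of 0, the interval reached beyond 0.58 in at least 1 direction.

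**Figure D3:**
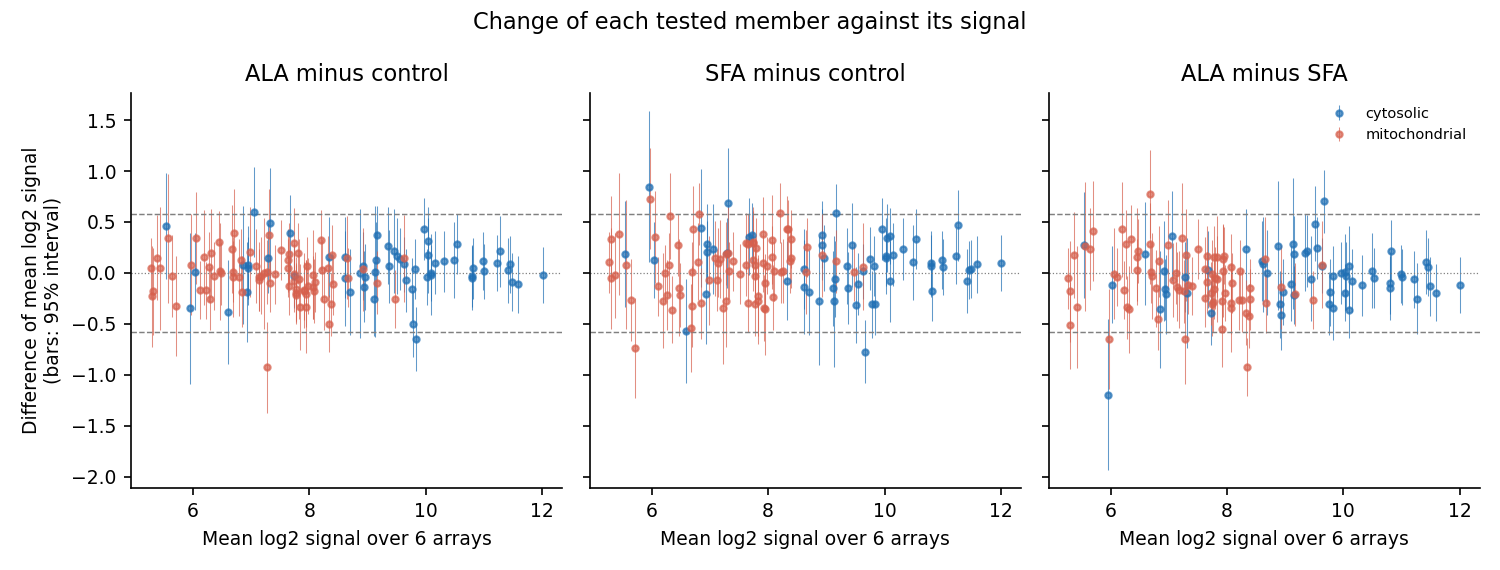
Difference of mean log2 signal (vertical axis) with its 95% interval against mean log2 signal over the 6 arrays (horizontal axis) for each tested cytosolic (blue) and mitochondrial (red) member in the 3 comparisons. Dashed lines mark 0.58 either side of 0; in the ALA against control panel 95 of 134 intervals stay between them.

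Cytosolic and mitochondrial members were then set side by side. On ALA against control the median difference was 0.05 in cytosolic and −0.02 in mitochondrial members, and −0.01 over all tested genes. On SFA against control it was 0.10 and 0.08, against −0.05 over all tested genes. Between ALA and SFA it was −0.04 and −0.08, against 0.04. The SFA medians of both compartments were thus above 0 and that of all tested genes below it. Differences on SFA were positive in 40 of 58 cytosolic and 48 of 76 mitochondrial members, against 44.8% of all tested genes. On ALA they were positive in 36 of 58 and 33 of 76, against 48.3%.

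These medians moved with the scaling of the arrays. With each array centred on its 75th percentile, the SFA medians were 0.20 in cytosolic and 0.17 in mitochondrial members, and 0.05 over all tested genes. The ALA to SFA medians were then −0.15 and −0.19, and −0.07 over all tested genes, a shift of over 0.1 from the deposited scale that members and other genes shared. On the deposited scale the SD between duplicates of an array's median deviation, taken over genes from each gene's own mean, was 0.05 for cytosolic and 0.009 for mitochondrial members. Without ALA replicate 1 the cytosolic median of ALA minus control was 0.13 and of ALA minus SFA 0.02, and without ALA replicate 2 they were −0.02 and −0.10. The sign of the cytosolic medians on ALA therefore depended on which ALA array was kept.

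Counted by whether the arrays overlapped, 21 of 58 cytosolic members (36.2%) had both ALA arrays on 1 side of both control arrays, 18 higher and 3 lower, against 55% of all tested genes, 27% higher and 28% lower. For the mitochondrial members it was 32 of 76 (42.1%), 13 higher and 19 lower. On SFA, 43 cytosolic members (74.1%) did not overlap with control, 29 higher and 14 lower, against 64.2% of all tested genes, 28.6% higher and 35.7% lower. The mitochondrial count on SFA was 47 (61.8%), 29 higher and 18 lower. Between ALA and SFA, 28 cytosolic members (48.3%) did not overlap, 8 higher and 20 lower on ALA, and 44 mitochondrial members (57.9%), 12 higher and 32 lower, against 55.8%, with 31.4% higher and 24.4% lower. Most of these small, same-sided differences were not called.

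By subunit, the 20 core proteins of the cytosolic small subunit had median differences of −0.01 on ALA and 0.05 on SFA against control, and the 32 of the large subunit 0.08 and 0.13. The 26 mitochondrial small-subunit genes had −0.04 and 0.08, and the 50 of the large subunit −0.01 and 0.08. Mrps18a and Mrps30 were counted in the large subunit, where their proteins sit despite the names. Of the 7 called members 5 encode large-subunit proteins, 2 cytosolic and 3 mitochondrial. The large subunits also hold more of the tested members, 32 and 50, than the small ones, 20 and 26. In the cytosolic small subunit 0 of 20 core genes were called by limma in any comparison. Of all tested genes 7.93% were called on ALA, 13.8% on SFA and 1.53% between ALA and SFA. At an unadjusted p below 0.05 there were 0 on ALA against control, 4 on SFA against control (20%) and 3 between ALA and SFA (15%). Over all tested genes these shares were 24.7%, 31.9% and 22.4%.

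**Figure D4:**
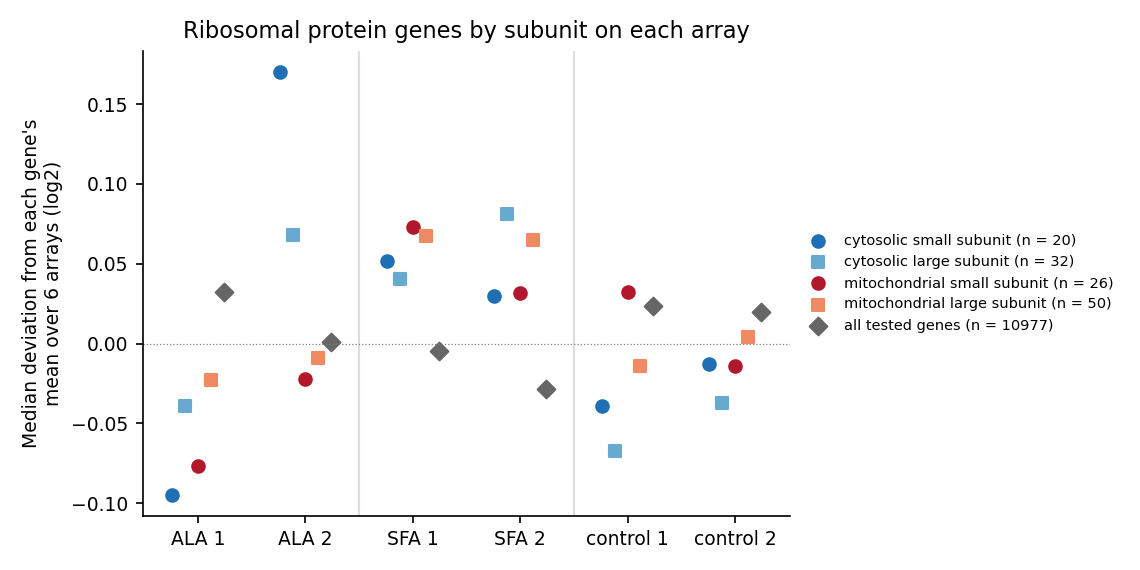
Median deviation of each set of genes from its genes' own means over the 6 arrays (vertical axis, log2) on each array, for the core proteins of each ribosomal subunit and for all 10977 tested genes. ALA replicates 1 and 2 lie far apart for the cytosolic small subunit, at −0.09 and 0.17, and on both SFA arrays all 4 subunits lie above 0.

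The ALA duplicates differed from each other over many members. Of the 58 cytosolic members 43 (74.1%) had a higher signal on ALA replicate 2 than on replicate 1, as did 48 of 76 mitochondrial members (63.2%), against 44.0% of all tested genes. The median deviation of the cytosolic members was −0.05 and 0.07 in ALA pools, 0.05 and 0.07 in SFA pools, and −0.06 and −0.03 in control pools. For the mitochondrial members it was −0.03 and −0.01 on ALA, 0.07 and 0.05 on SFA, and −0.00 and 0.00 in control pools. Rps12, a small-subunit gene, had 8.51 and 9.41 in ALA pools, and Rpl24, a large-subunit gene, 8.78 and 9.68. Among mitochondrial members Mrpl21 had the widest ALA gap, at 5.34 and 6.19. The cell cycle markers also differed between these 2 arrays, with medians of 5.87 and 7.25 in ALA pools, 7.52 and 7.37 in SFA pools, and 5.19 and 5.21 in control pools, and their part in the gap was not tested.

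Genes at fixed places in the ribosome were read one by one. Rplp0, at the base of the stalk that recruits translation factors and often used as a reference gene, had 10.95 and 11.09 in ALA pools, 11.02 and 11.04 in SFA pools, and 10.88 and 10.92 in control pools. Its differences from control were 0.12 on ALA (95% interval −0.17 to 0.41) and 0.13 on SFA (95% interval −0.16 to 0.41), neither of which was called. A second probe of Rplp0 differed from control by 0.13 on ALA and 0.27 on SFA. Rplp1, the partner of Rplp0 in the stalk, had 11.33 and 11.59, 11.35 and 11.36, and 11.41 and 11.46 on ALA, SFA and control arrays. Its differences from control were 0.03 on ALA and −0.08 on SFA, while a second, dimmer probe (mean 9.77) gave 0.22 and 0.17. Rps6, the substrate of the S6 kinases below mTOR, had 11.96 on both ALA arrays, 12.11 and 12.05 in SFA pools, and 11.96 and 12.00 in control pools. Rps6 differed from control by −0.02 on ALA (95% interval −0.30 to 0.25) and 0.10 on SFA (95% interval −0.17 to 0.37).

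Members on the X chromosome were read because the pools differed in sex makeup. Rpl10, which encodes a late-joining large-subunit protein, had 11.47 and 11.50 in ALA pools, 11.68 and 11.67 in SFA pools, and 11.64 and 11.54 in control pools. Rpl36a, also of the large subunit, had 9.50 and 9.70, 9.87 and 9.93, and 9.82 and 9.70 on ALA, SFA and control arrays. Both ALA arrays lay below the other 4 in Rpl10, while in Rpl36a they lay below the SFA arrays and overlapped with control. Rps4x, of the small subunit, had 9.98 and 10.29 in ALA pools, 10.14 and 10.19 in SFA pools, and 9.81 and 9.83 in control pools, so that its control arrays were lowest. None of the 3 was called in any comparison. Each reading is from the gene's brightest probe, and whether that probe lies on the X chromosome was not checked. The 4 other probes of Rps4x differed from control by 0.31 to 0.46 on ALA and 0.38 to 0.58 on SFA. The chosen probe gave 0.31 and 0.34. With the mean of all its probes, limma gave Rps4x an adjusted p of 0.0507 on SFA against control.

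Rps27l was the only called paralog among those tested. Rpl7l1, related to Rpl7, had 9.02 and 8.75 in ALA pools, 9.06 and 9.08 in SFA pools, and 8.90 and 8.95 in control pools, and Rpl7 itself had 8.41 and 8.86, 8.76 and 8.50, and 8.82 on both control arrays. Rpl22, a large-subunit gene, had 7.38 and 7.26, 7.52 and 7.21, and 7.17 on both control arrays. Rps19bp1, which encodes a binding protein of Rps19, had 6.81 and 6.71 in ALA pools, 6.72 and 7.52 in SFA pools, and 6.74 and 6.62 in control pools, and its SFA duplicates were the farthest apart of all tested members. The 3 relatives of bacterial S18 in the mitochondrial ribosome showed small differences: on ALA and SFA against control, Mrps18a differed by −0.20 and −0.34, Mrps18b by −0.09 and 0.11, and Mrps18c by −0.33 and −0.35, with no call.

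Several members had further probes. The 38 cytosolic members with more than 1 single-symbol probe had 152 other probes with a mean signal of at least 5, and 137 of these had the sign of the chosen probe on ALA against control and 133 on SFA against control. Some of them hold identical values, since Rps12 alone had 14 probes, so they are not independent readings. Rpl8, Rpl37a, Rps27l, Mrps22, Mrpl19 and Mrpl50 each had 1 probe, so no second reading of these calls was at hand.

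The machinery around the ribosome was read from lists. Of 47 tested ribosome biogenesis genes, 1 rose on ALA against control and 3 rose on SFA, with medians of 0.09 in each comparison. Nolc1, a nucleolar chaperone of small nucleolar ribonucleoproteins, rose by 0.65 on ALA (SE 0.12, adjusted p = 0.0223). On SFA, Imp4 of the early small-subunit processome rose by 0.59, Nop56 of the box C/D ribonucleoproteins by 0.56, and Nmd3, the export adapter of the large subunit, by 0.49. Their share of calls was below 7.93% and 13.8%, the shares of all tested genes.

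Among 11 regulators of ribosomal protein synthesis, Myc, a transcription factor that drives ribosome biogenesis genes, had 7.42 and 7.46 in ALA pools, 7.82 and 7.75 in SFA pools, and 6.36 and 6.01 in control pools. The ALA and SFA pools lay above control without overlap. Myc rose by 1.26 on ALA (SE 0.15, adjusted p = 0.00669) and by 1.60 on SFA (SE 0.15, adjusted p = 0.00302). Both calls of Myc held with any 1 array left out (adjusted p = 0.0115 to 0.0362 on ALA and 0.00555 to 0.0336 on SFA). Mtor fell by 0.46 on SFA (adjusted p = 0.0465). The list's medians were −0.15 on ALA and −0.08 on SFA.

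Of 17 tested genes of RNA polymerase I, which makes the ribosomal RNA, Polr1a, its largest subunit, rose by 0.57 on ALA, and Taf1a, of the promoter factor SL1, fell by 0.67 on SFA. Taf1d, also of SL1, was higher on ALA than on SFA by 0.97. Of 40 cytosolic translation factors, limma called 0 on ALA, with 4 at an unadjusted p below 0.05, and 3 on SFA. Eif5a rose by 0.51 there, while Eif4a2, an RNA helicase of initiation, fell by 0.83 and Eef1d, an exchange factor of elongation, fell by 0.71. Over all tested genes 7.93% were called on ALA, 13.8% on SFA and 1.53% between ALA and SFA. At an unadjusted p below 0.05 the share on ALA was 24.7%.

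On the mitochondrial side, limma called 0 of 12 translation factors in any comparison, with 2 at an unadjusted p below 0.05 on ALA, 2 on SFA and 1 between them. Of 18 mitochondrial ribosome assembly genes, Mpv17l2, which acts in assembly at the inner membrane, rose by 0.67 on SFA, and Nsun4, a methyltransferase of the small-subunit RNA, fell by 0.55. On ALA 0 of the 18 were called, with 4 at an unadjusted p below 0.05. Of 6 mitochondrial transcription genes 0 were called, with 0, 1 and 0 at an unadjusted p below 0.05 on ALA, on SFA and between them. In the same order, 7.93%, 13.8% and 1.53% of all tested genes were called, and 24.7%, 31.9% and 22.4% had an unadjusted p below 0.05. Ribosomal proteins whose symbols do not follow the pattern were listed as 4 cytosolic and 6 mitochondrial genes, and the 6 with a probe of their own, Fau and Rpsa in the cytosol and Chchd1, Dap3, Gadd45gip1 and Ptcd3 in mitochondria, were not called either. Gadd45gip1 had 8.03 and 8.05 in ALA pools, 8.43 and 8.44 in SFA pools, and 8.21 and 8.25 in control pools, with control between the other diets as in Mrpl50. Apart from Myc, each call named from these lists of the ribosome's machinery was lost without at least 1 of the arrays. The calls of Nolc1, Polr1a, Taf1d, Eif5a and Mtor were lost whichever array was left out.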

How the data were processed

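Total RNA from pooled livers was measured on 6 arrays. The authors deposited log2 values (lowest 1.98, highest 13.1) made with RMA (robust multi-array average) in Partek 6.6, per the submitters' processing notes. The log base, background settings and annotation version are not given in the sources used here. Groups and replicate numbers came from the sample titles. Of 35556 probes, 21789 were annotated to 1 symbol, 1621 to several and 12146 to none listed. Of the 21789, 21698 were found in RefSeq by Entrez identifier and 0 symbols changed. The brightest probe stood for a gene. Chromosomes given beside probes are those of the genes in RefSeq, and the genomic position of the probes was not checked.

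A model with 3 diet means and all 6 arrays was run with limma 3.58.1 in R 4.3.3 and default empirical Bayes moderation (3 residual and 4.05 prior degrees of freedom). P-values are two-sided and Benjamini-Hochberg adjusted over the 10977 tested genes, and an adjusted p below 0.05 was a call. Errors are SE from this fit, and intervals are 95%. The procedure was tested on simulated data. The number of arrays, 2 per diet, limits the precision.

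Members, lists, tests and the naming rule were chosen with earlier results of these data known. The rule names up to 5 called members per comparison, compartment and direction, or the 3 with the smallest p where fewer than 3 were called, plus genes fixed by name. Genes singled out for wide gaps between duplicates, and Mrpl44, Gadd45gip1 and the genes whose promoters are printed, were chosen after their values were seen. Same-numbered arrays did not deviate together (correlations of 0.02, −0.03 and −0.00), so the numbers were not taken as pairs. Alternatives changed the scaling, the filter, the probe rule, the moderation, the arrays fitted and the replicates kept.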

Additional observations from a re-analysis of the deposited data

How the results depend on the processing

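The counts of called members, given as ALA against control, SFA against control and ALA against SFA, were 2, 4 and 1. They were 2, 11 and 1 after 75th-percentile centring, 2, 6 and 1 after quantile normalization, 1, 2 and 0 without the signal filter, 3, 4 and 1 with the mean of all probes, 5, 10 and 2 with trended robust moderation, and 0, 5 and 0 when only the arrays compared were fitted. Over all tested genes, 7.66%, 13.8% and 0.911% were called after centring, and 8.18%, 13.6% and 0.619% after quantile normalization. Without the filter the shares were 3.07%, 5.99% and 0.16%, and with the mean of all probes 7.94%, 14% and 1.58%. With trended robust moderation they were 10.5%, 15.9% and 3.84%, and in the 4-array fits 4.08%, 13% and 0.1%. The F test's 6 calls were 2 without the filter and 12 with trended robust moderation. By compartment, 75th-percentile centring gave 4 cytosolic and 6 mitochondrial rises on SFA, and quantile normalization 4 mitochondrial ones. Without the filter there were 0 cytosolic falls on ALA, 0 mitochondrial rises on SFA and 0 mitochondrial falls against SFA. The mean of all probes gave 1 cytosolic rise on ALA (Rps4l). Trended robust moderation gave 1 cytosolic rise and 2 falls and 2 mitochondrial falls on ALA, 5 cytosolic and 4 mitochondrial rises on SFA, and 1 cytosolic rise against SFA. The 4-array fits gave 0 falls on ALA in either compartment and 0 mitochondrial falls against SFA. More genes or fewer arrays entered some of these fits, and the cause was not tested otherwise. With core proteins alone, an alternative chosen after seeing the data, the cytosolic falls on ALA were 0 and the members called on ALA 1, because Rps27l is left out.

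With the replicate number as a block, which the data do not bear out as pairing, there was 1 cytosolic rise on ALA (Rps4l, adjusted p = 0.0471), 0 cytosolic falls (Rps27l, adjusted p = 0.0504), 0 mitochondrial falls against SFA (Mrpl50, adjusted p = 0.0617), 0 members called between ALA and SFA and 3 by the F test. Over all tested genes the block left 719, 1232 and 0 calls in the 3 comparisons.

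The mitochondrial median on ALA was −0.036 after 75th-percentile centring. The SFA medians were 0.20 in cytosolic and 0.17 in mitochondrial members after it, and 0.13 in mitochondrial members after quantile normalization. The ALA to SFA medians were −0.15 and −0.19 after centring, −0.14 in mitochondrial members after quantile normalization and −0.073 without the filter. With 1 array left out, members called numbered 0 to 1 on ALA, 0 to 5 on SFA, 0 between ALA and SFA and 0 to 3 by the F test. Cytosolic falls on ALA were then 0 and mitochondrial ones 0 to 1. On SFA, cytosolic rises and falls were each 0 to 1 and mitochondrial rises 0 to 3, and mitochondrial falls against SFA were 0. Cytosolic medians ran from −0.024 to 0.13 on ALA, 0.076 to 0.11 on SFA and −0.10 to 0.017 between ALA and SFA. Mitochondrial medians ran from −0.043 to −0.022, 0.038 to 0.090 and −0.099 to −0.083. Where 1 array was left in a group, it was assumed to vary like the others. Calls over all tested genes were also fewer in each fit with 1 array left out, in all 3 comparisons. No called difference changed sign in any of these settings.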

Other observations

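The aminoacyl-tRNA synthetases, which load amino acids onto transfer RNAs, were read as a further list. Of 18 tested cytosolic synthetases 2 fell on ALA against control. Cars, for cysteine, had 6.54 and 6.32 in ALA pools, 6.94 and 7.02 in SFA pools, and 7.42 and 7.30 in control pools, a fall of 0.94 on ALA (adjusted p = 0.0107). Tars, for threonine, fell by 0.77 (adjusted p = 0.0361). On SFA against control Rars, for arginine, and Vars, for valine, each rose by 0.47. The list's medians were −0.09 on ALA and −0.06 on SFA, against −0.01 and −0.05 over all tested genes. Of all tested genes 7.93% were called on ALA and 13.8% on SFA, and 24.7% had an unadjusted p below 0.05 on ALA. Of 15 tested mitochondrial synthetases, Hars2 rose by 0.50 and Nars2 fell by 0.74 on SFA against control, and limma called 0 on ALA, with 2 at an unadjusted p below 0.05. Each of these calls was lost without at least 1 array, and those of Tars and Hars2 were lost whichever array was left out.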
